A study of Mus musculus with 6 samples.

Results

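The genes described here carry glucose into the cell, break it down to pyruvate and lactate, store it as glycogen, or answer to low oxygen through the hypoxia-inducible factor (HIF). A list of 36 mouse gene symbols was matched to the rows of the count table, and genes with 30 or more counts summed over the 6 libraries were kept. This left 34 of the 39179 genes in the table: Slc16a3, with 43 counts, lay just inside the threshold, and P4ha2 (19 counts) and the carbonic anhydrase gene Car9 (4 counts) lay outside it. Slc16a3 did not pass the low-count filter of the test, so 33 of the 34 were tested.

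RNA came from neural progenitor cells of the embryonic cortex (stage E13.5) of CD1 mice, grown in flasks and differentiated before lysis. The 3 control libraries came from cells that stably expressed green fluorescent protein (GFP). The other 3 came from cells that stably expressed G392E neuroserpin (G392E-NS), a variant of a neuronal serine protease inhibitor that polymerises in the endoplasmic reticulum and causes the dementia FENIB. The sources used here give neither the promoter that drove the transgenes nor whether a group was 1 clone or several cultures. The p-values thus measure only how these libraries vary, and that variation may be technical.

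In glycolysis a hexose is phosphorylated, split and oxidised to pyruvate in the cytosol, and most steps can be run by several isoforms encoded by separate genes. In the brain, astrocytes are known for aldolase C, glycogen and lactate export, while neurons use the glucose transporter GLUT3 and gamma-enolase. HIF is a transcription factor whose alpha subunit is hydroxylated by oxygen-dependent EGLN enzymes and then degraded. When oxygen is short it accumulates and drives many glycolytic genes.

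Libraries held 15507487 to 24835835 counts, and levels are given as CPM, counts scaled to a common library size and composition. Neural progenitor markers (Nes, Sox2, Pax6, Hes5, Vim and Fabp7) summed to 4035 to 4645 CPM in the GFP controls and 3781 to 4812 CPM in G392E-NS libraries, so markers of the labelled cell type were present, together with neuron markers (3261 to 3752 and 3074 to 4241 CPM) and oligodendrocyte lineage markers (3220 to 3901 and 2762 to 5051 CPM). Among progenitor markers Nes fell (log2 fold change −0.77, adjusted p = 0.048, edgeR). Gap43 among neuron markers (adjusted p = 0.00585) and Pdgfra (adjusted p = 0.0435) and Mog (adjusted p = 0.0295) among oligodendrocyte lineage markers rose (edgeR). Of the neuron markers Stmn2 had 14 counts in all. Astrocyte markers summed to 2979 to 4111 CPM in the GFP controls and 5574 to 8423 CPM in G392E-NS libraries, with no overlap. Of the 8, 3 rose (Slc1a2, Aldh1l1 and Gjb6). Over the GFP libraries Gjb6 had only 33 counts and Mog 13, against 453 and 68 over the G392E-NS libraries. Gjb6 and Mog passed the low-count filter only through their G392E-NS levels, so their calls are not independent of that filter. Markers of dividing cells summed to 33.9, 52.8 and 2.82 CPM in GFP replicates 1 to 3, and to 7.29 to 17.4 CPM in G392E-NS libraries. The highest sum was 0.351 CPM for microglial, 1.23 CPM for endothelial and 3.35 CPM for mesenchymal and mural markers, and C1qa, Csf1r, Cldn5, Cdh5, Lum and Dcn had no counts.

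Several glycolytic genes were higher in cells expressing G392E-NS, led by aldolase C, while none of the members grouped here as HIF factor, hydroxylases or non-glycolytic HIF targets passed the test. Of 33 members tested, 8 rose and 0 fell (quasi-likelihood test of edgeR, with p adjusted by Benjamini-Hochberg over all 13775 genes tested and a threshold of 0.05). Over all genes tested, 4.79% rose and 1.36% fell, and 6.15% passed in either direction. The 8 were Slc2a3, Pfkm, Pfkp, Aldoc, Tpi1, Gapdh, Pgam1 and Eno2. At an unadjusted p under 0.05 there were 14 members, 2 of them lower (Ldha and Hif1a), and 3090 of all 13775 genes tested. No member was called lower by DESeq2 or limma-voom either. In 12 members every G392E-NS library lay above every GFP library, a pattern shown by 15.7% of all genes tested, and in 1 member, Hif1a, every G392E-NS library lay below (12.9% of all genes tested). In either direction 28.6% of all genes tested did not overlap. The median log2 fold change of G392E-NS over GFP was 0.27 over the members and −0.01 over all genes tested. In bulk RNA, more cells of a type and more RNA per cell cannot be told apart.

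The number of members called depended on which libraries were included. It was 1 without GFP replicate 1 or GFP replicate 2, 3 without GFP replicate 3 or G392E-NS replicate 2, 6 when G392E-NS replicate 3 was dropped and 9 when G392E-NS replicate 1 was. The share of all genes called higher moved too, to 1.38% and 1.46% without GFP replicates 1 and 2 and to 7.04% without G392E-NS replicate 1. Slc2a3 was the 1 member of the 8 whose call held with each library left out. No member that passed with all libraries changed direction.

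**Figure D1:**
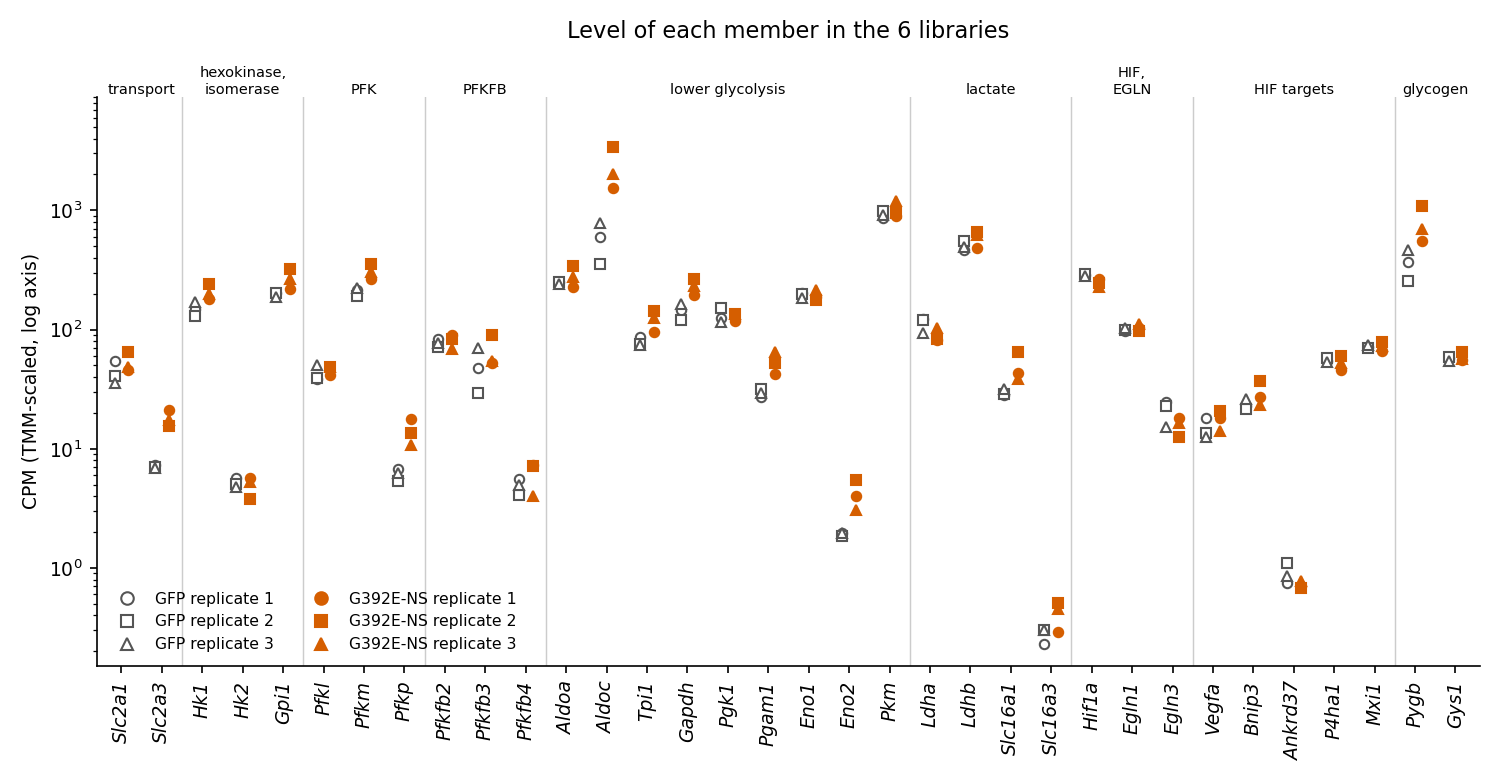
Level of the 34 members in each library in TMM-scaled CPM on a log axis, grouped by role. Open symbols are GFP and filled symbols G392E-NS libraries, with the marker shape giving the replicate. Aldoc has the largest fold between group means, from 357 to 788 CPM in GFP to 1541 to 3386 CPM in G392E-NS libraries, while the groups overlap in Pkm, Eno1, Mxi1 and Gys1.

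Glucose enters neural cells mainly through 2 facilitative transporters, GLUT1, encoded by Slc2a1, and the high-affinity GLUT3, encoded by Slc2a3. Slc2a3 (ENSMUSG00000003153, GRCm38 chromosome 6, 122727809 to 122801640) had 7.31, 7.03 and 6.89 CPM in GFP replicates 1 to 3 and 21.1, 15.5 and 17.5 CPM in G392E-NS replicates 1 to 3. The GFP libraries lay close together and the lowest G392E-NS library was far above them. Slc2a3 rose 2.55-fold (log2 fold change 1.35, SE 0.15, adjusted p = 0.00279, edgeR). Slc2a1 (ENSMUSG00000028645, chromosome 4, 119108711 to 119137983) had 43.5 ± 9.51 CPM in the GFP controls and 53.0 ± 9.94 CPM in G392E-NS libraries (SD over n = 3 per group), with overlap between the groups, and the log2 fold change was 0.29 (SE 0.18, adjusted p = 0.395, edgeR). Per kilobase of exon, Slc2a3 stood at 0.0653 to 0.0928 of the level of Slc2a1 in GFP and at 0.117 to 0.223 in G392E-NS libraries, so Slc2a1 remained the more abundant transcript in all 6.

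The first steps of glycolysis phosphorylate glucose and isomerise it. None of the 3 members here passed edgeR's test, with 2 at an unadjusted p under 0.05. Hk1, the hexokinase of brain that binds mitochondria, had 147, 131 and 170 CPM in the GFP controls and 179, 239 and 201 CPM in G392E-NS libraries. Each G392E-NS library was above each GFP library, yet the log2 fold change was 0.47 (SE 0.14) at an adjusted p of 0.0924 by edgeR. DESeq2 called Hk1 higher (adjusted p = 0.0402), as did edgeR with no low-count filter (0.0442). Gpi1, the glucose-6-phosphate isomerase, had 197 ± 7.04 CPM in the GFP controls and 269 ± 52.2 CPM in G392E-NS libraries (adjusted p = 0.11, edgeR), again without overlap, and passed without G392E-NS replicate 1 (adjusted p = 0.0245). Hk2, the inducible hexokinase and a HIF target, was low, at 5.17 ± 0.474 CPM in the GFP controls and 4.92 ± 0.993 CPM in G392E-NS libraries, with overlapping values (log2 fold change −0.07, SE 0.21). A pseudogene of Gpi1 at 90% identity or more held 1247 counts beside the 28896 of Gpi1, and how reads were shared out between both is uncertain.

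Phosphofructokinase commits glucose to glycolysis, and its 3 subunit genes were expressed at very different levels. Pfkm, the muscle-type subunit that brain also uses (ENSMUSG00000033065, chromosome 15, 98092589 to 98132451), had 214, 191 and 223 CPM in the GFP controls and 268, 356 and 302 CPM in G392E-NS libraries. It rose 1.47-fold without overlap between the groups (log2 fold change 0.56, SE 0.13, adjusted p = 0.0424, edgeR). Pfkp, the platelet-type subunit (ENSMUSG00000021196, chromosome 13, 6579768 to 6648777), was low in GFP libraries, at 6.74, 5.32 and 6.25 CPM, and had 17.7, 13.6 and 10.8 CPM in G392E-NS libraries. Its rise of 2.31-fold (log2 fold change 1.21, SE 0.21, adjusted p = 0.0157, edgeR) was the larger in this family. Pfkl, the liver-type subunit, had 42.6 ± 6.37 and 46.1 ± 4.10 CPM in the GFP controls and G392E-NS libraries, with overlap and a log2 fold change of 0.11 (SE 0.13). Pfkm was 8.93 to 11.1 times as abundant per kilobase as Pfkl in GFP and 12.5 to 14.6 times in G392E-NS libraries. Exons of Pfkp share 748 bases with Pitrm1 on the opposite strand, and whether counting used strand is not stated in the sources used here.

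The call of Pfkm was lost without any 1 of the GFP libraries, or without G392E-NS replicate 2 or 3 (adjusted p = 0.154, 0.182, 0.0766, 0.0784 and 0.0751), and that of Pfkp without GFP replicate 1 or 2 (0.0636 and 0.0717, edgeR). Pfkm also lost its call with total-count scaling (0.0513).

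Phosphofructokinase is driven by fructose-2,6-bisphosphate, which the bifunctional PFKFB enzymes make and remove. None of Pfkfb2, Pfkfb3 and Pfkfb4 passed edgeR's test (adjusted p = 0.466 to 0.792), none had an unadjusted p under 0.05, and none was called by DESeq2 or limma-voom. Pfkfb3, the form with the strongest kinase activity and a HIF target, varied widely within groups, with 47.7, 29.6 and 70.0 CPM in the GFP controls and 52.5, 90.2 and 54.8 CPM in G392E-NS libraries. Pfkfb2 was steadier, at 77.1 ± 6.02 and 80.6 ± 11.3 CPM. Pfkfb4 had 4.89 ± 0.739 CPM in the GFP controls and 6.16 ± 1.84 CPM in G392E-NS libraries.

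Of 9 genes of lower glycolysis, from aldolase to pyruvate kinase, 5 rose, none fell and 4 did not pass edgeR's test. Over all genes tested, 4.79% rose. Aldolase splits fructose-1,6-bisphosphate into trioses. Aldoc, the brain aldolase that is abundant in astrocytes (ENSMUSG00000017390, chromosome 11, 78322968 to 78327781), had 596, 357 and 788 CPM in the GFP controls and 1541, 3386 and 2013 CPM in G392E-NS libraries. The spread within each group was wide, but the lowest G392E-NS library was well above the highest GFP library. Aldoc rose 3.98-fold, the largest fold among the members (log2 fold change 1.99, SE 0.36, adjusted p = 0.0185, edgeR). The call was lost without GFP replicate 1 (adjusted p = 0.0886) or GFP replicate 2 (0.055). Aldoa, the ubiquitous aldolase, had 246 ± 4.81 CPM in the GFP controls and 284 ± 57.5 CPM in G392E-NS libraries, which overlapped (log2 fold change 0.21, SE 0.14, adjusted p = 0.437, edgeR).

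Triose phosphate isomerase and glyceraldehyde-3-phosphate dehydrogenase carry the trioses on. Tpi1 (ENSMUSG00000023456, chromosome 6, 124810586 to 124814296) had 86.6, 75.2 and 74.4 CPM in the GFP controls and 95.9, 144 and 126 CPM in G392E-NS libraries, and rose 1.55-fold (log2 fold change 0.63, SE 0.15, adjusted p = 0.0491, edgeR). That value lay at the threshold: RLE scaling gave 0.0509, total-count scaling 0.0569, limma-voom 0.0622 and requiring 1 CPM in 3 libraries 0.0521. Gapdh (ENSMUSG00000057666, chromosome 6, 125161715 to 125166467) had 146, 120 and 164 CPM in the GFP controls and 193, 266 and 230 CPM in G392E-NS libraries, and rose 1.60-fold (log2 fold change 0.68, SE 0.15, adjusted p = 0.0418, edgeR). The groups did not overlap in either gene. Tpi1 and Gapdh each lost their call without any 1 of the GFP libraries and without G392E-NS replicate 2 or 3, with adjusted p of 0.108 to 0.178 for Tpi1 and 0.0519 to 0.149 for Gapdh.

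The value of Gapdh is uncertain because the mouse genome holds many near-identical copies of it. Annotated pseudogenes that match Gapdh at 90% identity or more over at least 300 bases numbered 168, of which 144 were in the table with 10988 counts, against 23202 counts on Gapdh itself. These pseudogene counts summed to 69.8 ± 7.48 CPM in the GFP controls and 107 ± 13.8 CPM in G392E-NS libraries, a ratio of 1.54. Reads that fit several copies may have been dropped or split, which the sources used here do not say.

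Phosphoglycerate mutase and the enolases stand between the energy-yielding steps. Pgam1 (ENSMUSG00000011752, chromosome 19, 41911923 to 41918660) had 27.2, 32.0 and 29.6 CPM in the GFP controls and 42.1, 52.6 and 65.2 CPM in G392E-NS libraries, a rise of 1.80-fold without overlap (log2 fold change 0.85, SE 0.16, adjusted p = 0.0224, edgeR). Eno2, the neuronal gamma-enolase (ENSMUSG00000004267, chromosome 6, 124760053 to 124769673), was low, at 1.96, 1.86 and 1.97 CPM in the GFP controls and 3.99, 5.47 and 3.06 CPM in G392E-NS libraries. It rose 2.18-fold (log2 fold change 1.12, SE 0.26, adjusted p = 0.0432, edgeR), from 117 counts over the GFP libraries and 272 over the G392E-NS libraries. Eno1, the ubiquitous alpha-enolase, had 196 ± 9.5 and 193 ± 19.7 CPM in the 2 groups, and the log2 fold change was −0.02 (SE 0.10). Its near-identical copy Eno1b held 3061 counts beside the 23754 of Eno1, at 25.1 ± 1.04 and 24.7 ± 1.57 CPM. Pgam1 lost its call without any 1 of the GFP libraries or G392E-NS replicate 2 (adjusted p = 0.0523 to 0.111), and Eno2 without any 1 of the GFP libraries or G392E-NS replicate 1 or 2 (0.0539 to 0.158) and by limma-voom (0.0531).

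The 2 enzymes that make ATP in glycolysis did not pass the test. Pgk1, the phosphoglycerate kinase (chromosome X, 106187100 to 106203699), had 126, 153 and 115 CPM in the GFP controls and 117, 134 and 136 CPM in G392E-NS libraries, which overlapped fully (log2 fold change −0.02, SE 0.12, adjusted p = 0.929, edgeR). Pkm, the pyruvate kinase, was the most abundant of these enzyme transcripts in the controls, at 926 ± 66.1 CPM in the GFP controls and 1014 ± 164 CPM in G392E-NS libraries (log2 fold change 0.13, SE 0.14, adjusted p = 0.632, edgeR). Its M1 and M2 splice forms are not separated in gene counts. Of the 15 enzymes from hexokinase to pyruvate kinase 7 rose, where 4.79% of all genes tested rose. Summed over the 15, the level was 2754 to 3162 CPM in the GFP controls and 4027 to 6446 CPM in G392E-NS libraries, a ratio of 1.76. Without Aldoc the sums were 2317 to 2397 and 2487 to 3086 CPM, a ratio of 1.22.

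**Figure D2:**
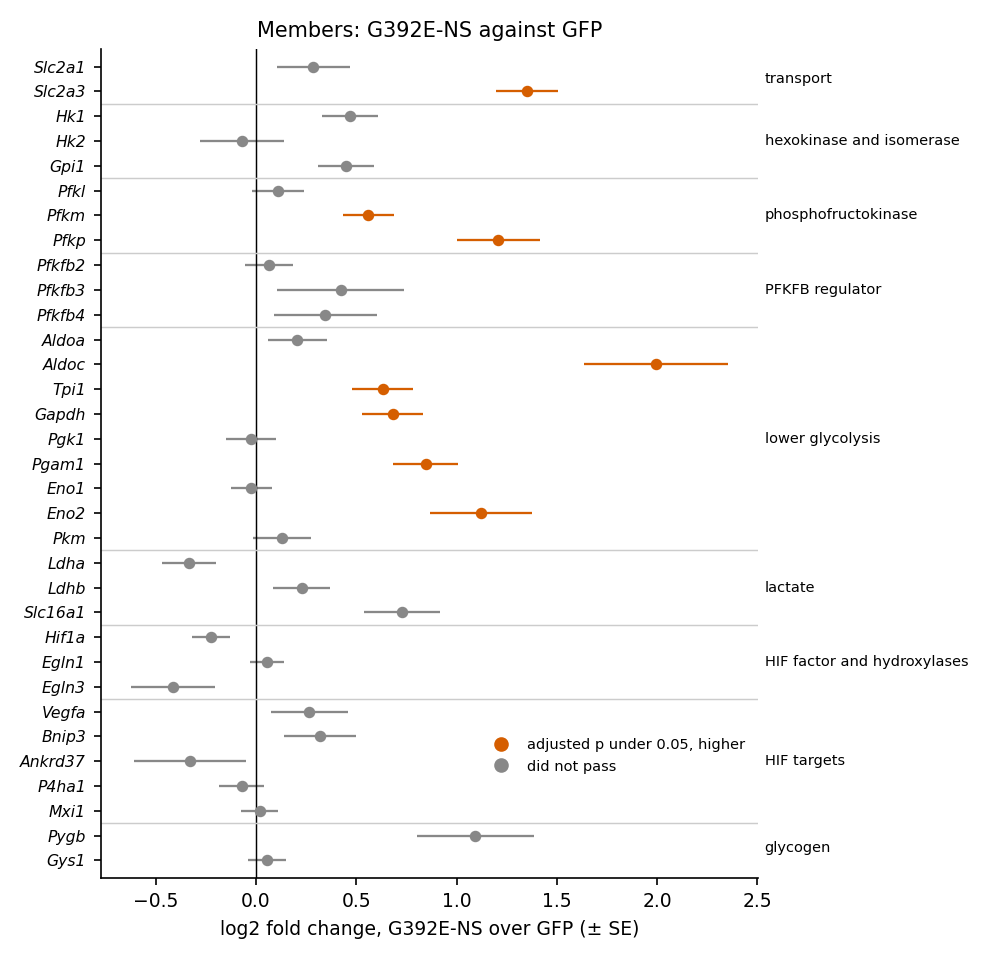
Log2 fold change of G392E-NS over GFP for the 33 members tested, with bars of 1 standard error on each side, by role. Orange points passed at an adjusted p under 0.05 (edgeR), and all 8 lie to the right of 0, from Pfkm at 0.56 to Aldoc at 1.99. None of the HIF factor, hydroxylase and target genes passed.

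Lactate dehydrogenase exchanges pyruvate and lactate, and monocarboxylate transporters carry both across the membrane. None of the 3 tested members of this group passed edgeR's test, with 2 at an unadjusted p under 0.05. Ldha, whose enzyme favours lactate formation (ENSMUSG00000063229, chromosome 7, 46841475 to 46855627), had 123, 120 and 94.3 CPM in the GFP controls and 81.5, 83.7 and 103 CPM in G392E-NS libraries. The third G392E-NS library lay above the third GFP library, so the groups overlapped (log2 fold change −0.33, SE 0.14, adjusted p = 0.199, edgeR). Ldhb, whose enzyme favours lactate use, was far more abundant, at 504 ± 43.2 CPM in the GFP controls and 590 ± 92.0 CPM in G392E-NS libraries (log2 fold change 0.23, SE 0.14, adjusted p = 0.378, edgeR). A pseudogene similar to Ldhb held 961 counts, against 67525 on Ldhb.

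Slc16a1, which encodes the lactate transporter MCT1, had 28.4, 29.0 and 31.7 CPM in the GFP controls and 43.2, 65.3 and 38.8 CPM in G392E-NS libraries. Every G392E-NS library was higher, and the log2 fold change was 0.73 (SE 0.19), but the adjusted p was 0.0625 by edgeR. It passed by DESeq2 (adjusted p = 0.00788), with no low-count filter (0.00645), with length and GC trends removed (0.0321) and without G392E-NS replicate 3 (0.0464), while without G392E-NS replicate 2 the log2 fold change was 0.47 (0.0683). Slc16a3, which encodes the glycolytic exporter MCT4, had 17 counts over the GFP and 26 over the G392E-NS libraries and was not tested. Per kilobase, Slc16a3 stood at 0.00560 to 0.00979 of the level of Slc16a1.

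Ratios of isoforms or homologues within a library need no scaling between libraries, and 9 pairs were compared on the log2 scale with a two-sided exact permutation test. With 3 libraries against 3 the smallest p possible is 0.1, so no pair can pass. In 6 pairs the groups did not overlap, each with an exact permutation p of 0.1 (0.15 adjusted over the 9 pairs). The share over other pairs of genes was not computed, and of single genes tested 28.6% did not overlap. Slc2a3, Pfkp, Pfkm, Aldoc and Eno2, each the numerator of such a pair, had passed alone, so their ratios are not separate evidence. The ratio of Aldoc to Aldoa per kilobase was 2.14, 1.28 and 2.92 in GFP and 5.99, 8.78 and 6.45 in G392E-NS libraries, a difference of 1.80 on the log2 scale. Ldhb to Ldha stood at 8.0, 9.68 and 11.1 in GFP and 12.6, 16.7 and 12.7 in G392E-NS libraries, a difference of 0.55, although neither gene passed alone. The differences were 1.1 for Eno2 to Eno1, 1.06 for Pfkp to Pfkl, 1.05 for Slc2a3 to Slc2a1 and 0.43 for Pfkm to Pfkl. Hk2 to Hk1, Egln3 to Egln1 and Slc16a3 to Slc16a1 overlapped, with differences of −0.55, −0.46 and −0.12 (exact permutation p = 0.2, 0.2 and 0.7).

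**Figure D3:**
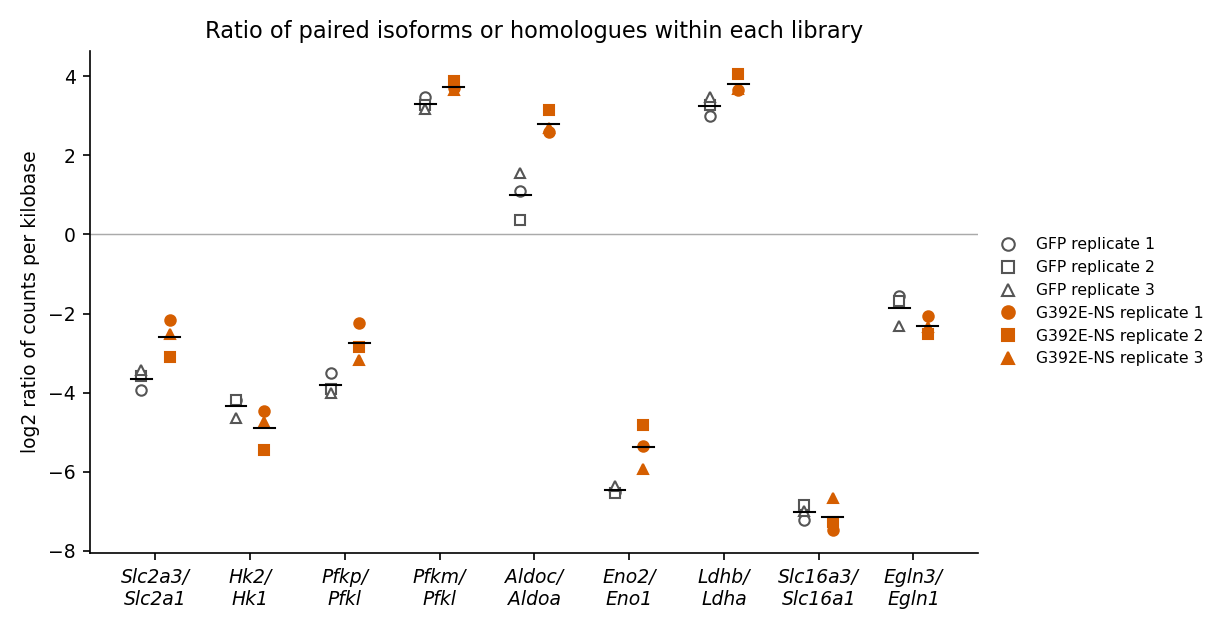
Log2 ratio of counts per kilobase of exon for 9 pairs of genes that share a function, in each of the 6 libraries. Open symbols are GFP and filled symbols G392E-NS libraries, and short lines are group means. Aldoc/Aldoa has the largest shift, from a mean of 1.0 to 2.80.

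Per kilobase of exon, the order of the members in GFP libraries began with Ldhb (321 CPM per kilobase), followed by Pkm (185 ± 13.2) and Aldoc (178 ± 66.3), which did not differ beyond their spread, and then Aldoa (84.5) and Pygb (75.8 ± 22.3), which did not either. In G392E-NS libraries Aldoc came first (709 ± 294), then Ldhb (376 ± 58.6), Pkm (203 ± 32.8) and Pygb (162 ± 58.3), of which Pkm and Pygb did not differ beyond their spread. At the low end of the 34 were Slc16a3, at 0.0521 CPM per kilobase in the controls, and Eno2, Pfkp and Ankrd37, at 0.410 to 0.587. Lengths are the union of all annotated exons, so a gene with long unused exons reads low on this scale.

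Of the 8 tested members grouped as HIF factor, hydroxylases and non-glycolytic targets, 0 passed edgeR's test in either direction, with 1 at an unadjusted p under 0.05, and none was called by DESeq2 or limma-voom. Their median log2 fold change was −0.03, with 4 above and 4 below 0. Hif1a, the oxygen-regulated subunit (ENSMUSG00000021109, chromosome 12, 73901375 to 73947530), had 289, 295 and 280 CPM in the GFP controls and 267, 245 and 227 CPM in G392E-NS libraries, each below every GFP library (log2 fold change −0.23, SE 0.10, adjusted p = 0.216, edgeR). With length and GC trends removed the log2 fold change of Hif1a was −0.09 (adjusted p = 0.541). HIF-1 alpha is controlled mainly at the protein level, which these counts do not measure.

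Of the prolyl hydroxylases that mark HIF for degradation, Egln1 stood at 99.9 ± 2.60 CPM in the GFP controls and 104 ± 6.81 CPM in G392E-NS libraries. Egln3, itself a HIF target, had 24.6, 23.0 and 15.2 CPM in the GFP controls and 18.2, 12.6 and 16.3 CPM in G392E-NS libraries, which overlapped (log2 fold change −0.41, SE 0.21, adjusted p = 0.294, edgeR). Among targets, Vegfa, the angiogenic growth factor, had 14.7 ± 2.98 and 17.6 ± 3.32 CPM, and Bnip3, a mitophagy receptor, 23.5 ± 2.39 and 29.3 ± 7.24 CPM. P4ha1, a collagen prolyl hydroxylase, had 55.3 ± 2.51 and 52.7 ± 6.73 CPM, and Mxi1, an antagonist of Myc, 71.96 ± 2.0 and 72.9 ± 6.14 CPM. Ankrd37 was near the detection limit, at 0.903 ± 0.182 and 0.723 ± 0.0537 CPM. All 5 overlapped between the groups, with adjusted p of 0.338 to 0.932 (edgeR).

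Promoters of 6 members are printed to set genes that rose beside genes that did not: Aldoc, Pgam1 and Pfkp rose, while Ldha, Pgk1 and Bnip3, textbook HIF targets, did not pass. Each is the 250 bases before the first start listed in RefSeq (build GRCm38.p6), 5′ to 3′ on the gene's strand. Capitals mark ACGTG or GCGTG on either strand, the core of the HIF response element. A CACGTG holds ACGTG on both strands and is also the E-box of other factors.
Aldoc (chr11:78322823-78323072, plus strand): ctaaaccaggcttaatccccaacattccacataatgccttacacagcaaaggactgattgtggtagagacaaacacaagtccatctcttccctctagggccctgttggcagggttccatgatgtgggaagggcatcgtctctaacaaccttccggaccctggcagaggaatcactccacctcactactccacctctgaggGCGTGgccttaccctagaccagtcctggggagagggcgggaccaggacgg
Pgam1 (chr19:41911621-41911870, plus strand): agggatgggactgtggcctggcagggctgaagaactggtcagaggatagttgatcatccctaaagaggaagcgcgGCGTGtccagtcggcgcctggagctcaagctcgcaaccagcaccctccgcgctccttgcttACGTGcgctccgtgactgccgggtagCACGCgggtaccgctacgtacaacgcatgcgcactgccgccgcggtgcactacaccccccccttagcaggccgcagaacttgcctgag
Pfkp (chr13:6648772-6649021, minus strand): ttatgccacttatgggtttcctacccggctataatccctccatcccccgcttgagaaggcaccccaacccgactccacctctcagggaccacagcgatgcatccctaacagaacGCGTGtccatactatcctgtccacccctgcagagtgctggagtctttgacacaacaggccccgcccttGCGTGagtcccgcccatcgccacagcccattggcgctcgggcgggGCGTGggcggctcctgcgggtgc
Ldha (chr7:46845554-46845803, plus strand): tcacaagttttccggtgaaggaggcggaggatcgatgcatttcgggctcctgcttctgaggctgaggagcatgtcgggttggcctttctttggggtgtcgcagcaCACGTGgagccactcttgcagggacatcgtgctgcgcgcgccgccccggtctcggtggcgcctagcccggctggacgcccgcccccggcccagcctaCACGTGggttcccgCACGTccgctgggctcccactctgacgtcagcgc
Pgk1 (chrX:106186850-106187099, plus strand): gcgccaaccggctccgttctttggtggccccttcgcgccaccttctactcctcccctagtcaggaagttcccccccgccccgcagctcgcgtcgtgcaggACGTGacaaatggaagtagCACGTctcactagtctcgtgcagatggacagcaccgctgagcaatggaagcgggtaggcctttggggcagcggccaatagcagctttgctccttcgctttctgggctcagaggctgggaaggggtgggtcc
Bnip3 (chr7:138909507-138909756, minus strand): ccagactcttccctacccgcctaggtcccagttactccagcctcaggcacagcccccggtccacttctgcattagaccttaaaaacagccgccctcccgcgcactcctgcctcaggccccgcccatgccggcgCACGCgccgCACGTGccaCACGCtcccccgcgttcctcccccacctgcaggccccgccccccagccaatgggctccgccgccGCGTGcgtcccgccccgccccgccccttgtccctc

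The core occurred in both kinds of promoter. Among genes that rose, Aldoc showed 1 marked run and Pgam1 and Pfkp 3 each. Ldha, at a log2 fold change of −0.33, showed 3, with 2 of them CACGTG, Pgk1 showed 2 and Bnip3 4. The promoters shown were chosen by outcome, and any part of HIF in these differences was not tested. RefSeq listed 50 such windows for 33 of the 34 members, and 40 of these (80.0%) held ACGTG or GCGTG, against 38.6% of all 32851 windows. Counted by gene, the core was in at least 1 window of 5 of 7 members that rose and of 23 of 25 tested members that did not pass. Over all 27025 genes with a window, that share was 41.5%. Slc2a3, which also rose, had no window listed. ACGTG alone was in 52.0% of member windows and 16.6% of all windows, and GCGTG in 52.0% and 28.2%. Base composition was not matched in these shares, and a match of letters is not evidence of binding.

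Glycogen is the glucose store of astrocytes. Pygb, the brain glycogen phosphorylase (ENSMUSG00000033059, chromosome 2, 150786735 to 150831758), had 371, 254 and 468 CPM in the GFP controls and 550, 1091 and 693 CPM in G392E-NS libraries. Every G392E-NS library was higher, and the log2 fold change was 1.09 (SE 0.29), but the spread left an adjusted p of 0.0669 by edgeR. It passed by DESeq2 (adjusted p = 0.00133), with no low-count filter (0.00207) and without G392E-NS replicate 1 (0.0389). Gys1, the glycogen synthase, had 56.9 ± 2.39 and 59.1 ± 4.75 CPM with overlap (log2 fold change 0.06, SE 0.09). Exons of Gys1 share 310 bases with Ruvbl2 on the other strand.

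Astrocyte markers were higher in G392E-NS libraries too. Their sum was 1.86 times as high as in GFP libraries, and it was lowest in GFP replicate 2 and highest in G392E-NS replicate 2 (2979 and 8423 CPM), as Aldoc and Pygb were. The order of the other libraries differed: among GFP libraries Aldoc and Pygb were highest in replicate 3 and the marker sum in replicate 1, and among G392E-NS libraries Aldoc and Pygb were lowest in replicate 1 and the sum in replicate 3. Among single markers, Gfap, Aqp4, Slc1a2, Slc1a3, Aldh1l1 and Gjb6 were highest in G392E-NS replicate 2, Sox9 in replicate 1 and S100b in replicate 3. Of GFP libraries, replicate 3 was highest in Gfap, Aqp4, Aldh1l1, Gjb6 and Sox9, replicate 1 in Slc1a2 and Slc1a3 and replicate 2 in S100b. Aqp4 and Sox9 overlapped between the groups. Slc1a2 and Slc1a3 made up most of the astrocyte sum, at mean levels of 966 and 2296 CPM in GFP and 2414 and 3783 CPM in G392E-NS libraries. Slc1a3 did not pass the test (adjusted p = 0.0729, edgeR). The sum of neuron markers was 1.02 times as high in G392E-NS libraries, but Map2 made up most of it. Gap43 rose 2.16-fold, and Syt1 (1.84-fold) and Snap25 (1.38-fold) did not overlap between the groups without passing the test. Over all genes tested, 15.7% had every G392E-NS library above every GFP library. Tubb3, Dcx, Map2 and Rbfox3 overlapped and did not pass, at log2 fold changes of 0.33, 0.20, −0.06 and −0.19. Stmn2, with 12 counts over the GFP and 2 over the G392E-NS libraries, was not tested. The part of astrocyte or neuron content in the members' differences was not tested. Slc2a3 and Pfkp were highest in G392E-NS replicate 1, Aldoc, Pygb and Eno2 in replicate 2 and Pgam1 in replicate 3. Without G392E-NS replicate 2 the log2 fold change was 1.62 for Aldoc and 0.78 for Pygb.

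**Figure D4:**
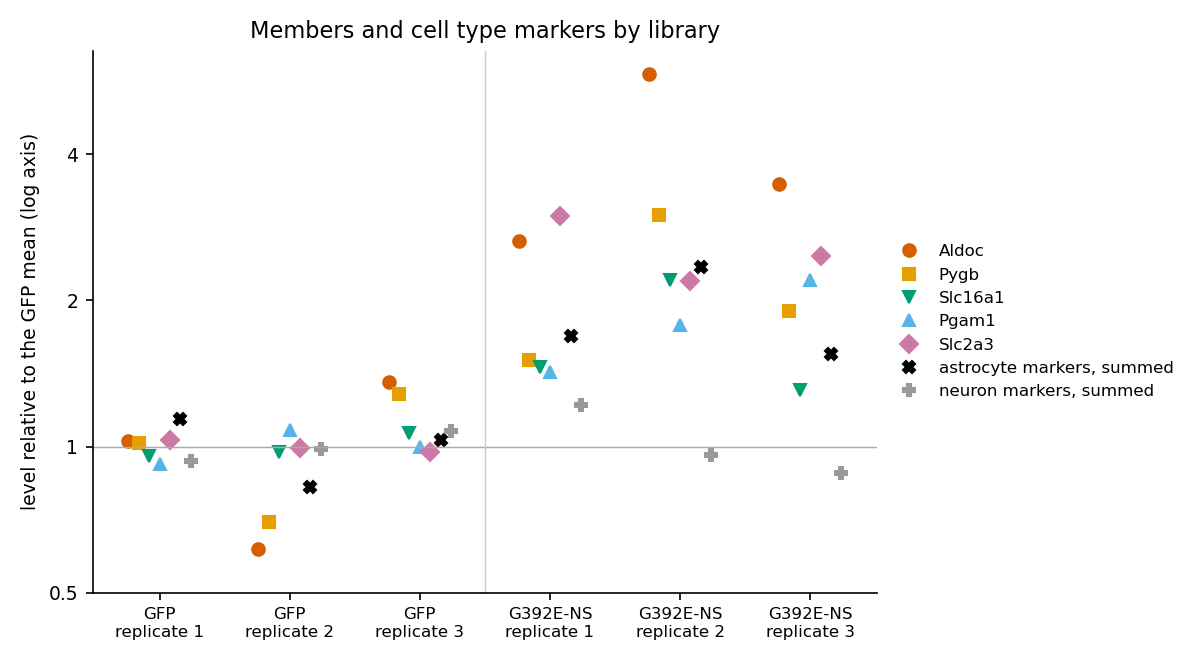
Level of 5 members, of summed astrocyte markers (8 genes) and of summed neuron markers (8 genes) in each library, divided by the mean of the GFP libraries, on a log axis. Aldoc, Pygb and the astrocyte sum are highest in G392E-NS replicate 2, though their order among the other libraries differs, while Slc2a3 peaks in replicate 1 and Pgam1 in replicate 3.

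A further 77 genes of glucose transport, pyruvate and lactate handling, glycogen and HIF signalling were examined, of which 62 were tested, 11 rose and 1 fell. The share that rose was 17.7%, against 4.79% of all genes tested, of which 1.36% fell. In glycogen metabolism 4 of 11 genes rose and 1 fell. Ppp1r3c, which targets a phosphatase to glycogen and favours storage, had 57.9, 39.7 and 62.1 CPM in the GFP controls and 107, 161 and 111 CPM in G392E-NS libraries and rose 2.37-fold (adjusted p = 0.0144, edgeR). Phka1, a regulatory subunit of phosphorylase kinase, rose 1.67-fold from 71.6 ± 5.35 to 119 ± 10.2 CPM (adjusted p = 0.00602, edgeR). Gyg, the glycogenin primer, rose 1.51-fold from 55.7 ± 1.51 to 84.1 ± 12.7 CPM (adjusted p = 0.0265, edgeR). Pygm, the muscle-type phosphorylase, had 14.6, 15.1 and 7.57 CPM in the GFP controls and 4.24, 2.29 and 5.61 CPM in G392E-NS libraries and fell 3.10-fold (adjusted p = 0.0418, edgeR), opposite to the values of Pygb. By limma-voom Pygm did not pass (adjusted p = 0.0534).

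Within the HIF system, 2 of 7 further genes rose, both alpha subunits, where 4.79% of all genes tested rose. Hif3a, whose short forms restrain HIF, had 1.15, 1.51 and 1.37 CPM in the GFP controls and 11.7, 12.4 and 5.61 CPM in G392E-NS libraries and rose 7.36-fold (log2 fold change 2.88, SE 0.33, adjusted p = 0.00304, edgeR). Epas1, which encodes HIF-2 alpha and is prominent in astrocytes and endothelium, had 20.7, 10.3 and 28.7 CPM in the GFP controls and 57.3, 111 and 52.8 CPM in G392E-NS libraries and rose 3.70-fold (log2 fold change 1.89, SE 0.40, adjusted p = 0.0331, edgeR). Epas1 was thus lowest in GFP replicate 2 and highest in G392E-NS replicate 2, as the sum of astrocyte markers was. Gfap, Aqp4 and Gjb6 had the same order of libraries within each group as Epas1, while Slc1a2, Slc1a3, Aldh1l1, S100b and Sox9 had another. The part of astrocyte content in Epas1 was not tested. The partner subunits Arnt and Arnt2 had log2 fold changes of −0.18 and 0.15 and did not pass. Of 17 further HIF targets tested, 2 rose and none fell: Pdk1, a kinase that restrains pyruvate oxidation (1.66-fold, adjusted p = 0.0283), and Ddit4, an mTOR inhibitor (1.31-fold, adjusted p = 0.0436, edgeR). The call of Ddit4 was also lost with total-count scaling (adjusted p = 0.0765), by limma-voom (0.0527) and with no low-count filter (0.0543).

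Outside these groups, Slc2a12, a further glucose transporter (GLUT12), rose 5.91-fold from 1.58 ± 0.457 to 9.32 ± 3.25 CPM (adjusted p = 0.00464, edgeR). Ldhd, the mitochondrial D-lactate dehydrogenase, rose 8.75-fold from 0.210 ± 0.101 to 1.92 ± 0.440 CPM (adjusted p = 0.00464) and Galm, which interconverts the anomers of hexoses, 5.22-fold from 0.332 ± 0.0766 to 1.78 ± 0.503 CPM (adjusted p = 0.00748, edgeR). Over the GFP libraries Ldhd had only 13 counts and Galm 20, against 120 and 107 over the G392E-NS libraries. Both passed the low-count filter only through their G392E-NS levels, so their folds and calls are not independent of that filter. Slc2a12, Ldhd, Galm, Phka1 and Hif3a kept their calls with each library left out. Of the other 6 genes named, calls were lost without GFP replicate 1 in all, without GFP replicate 2 in all but Ppp1r3c, without GFP replicate 3 in Gyg, Pdk1 and Ddit4, and, leaving out G392E-NS libraries, without replicate 1 in Pygm, without replicate 2 in Epas1, Pdk1, Ddit4 and Pygm, and without replicate 3 in Gyg, Epas1, Pdk1, Ddit4 and Pygm. The number of these genes called higher was 5, 6 and 7 without GFP replicates 1, 2 and 3 and 7 without G392E-NS replicate 2.

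**Figure D5:**
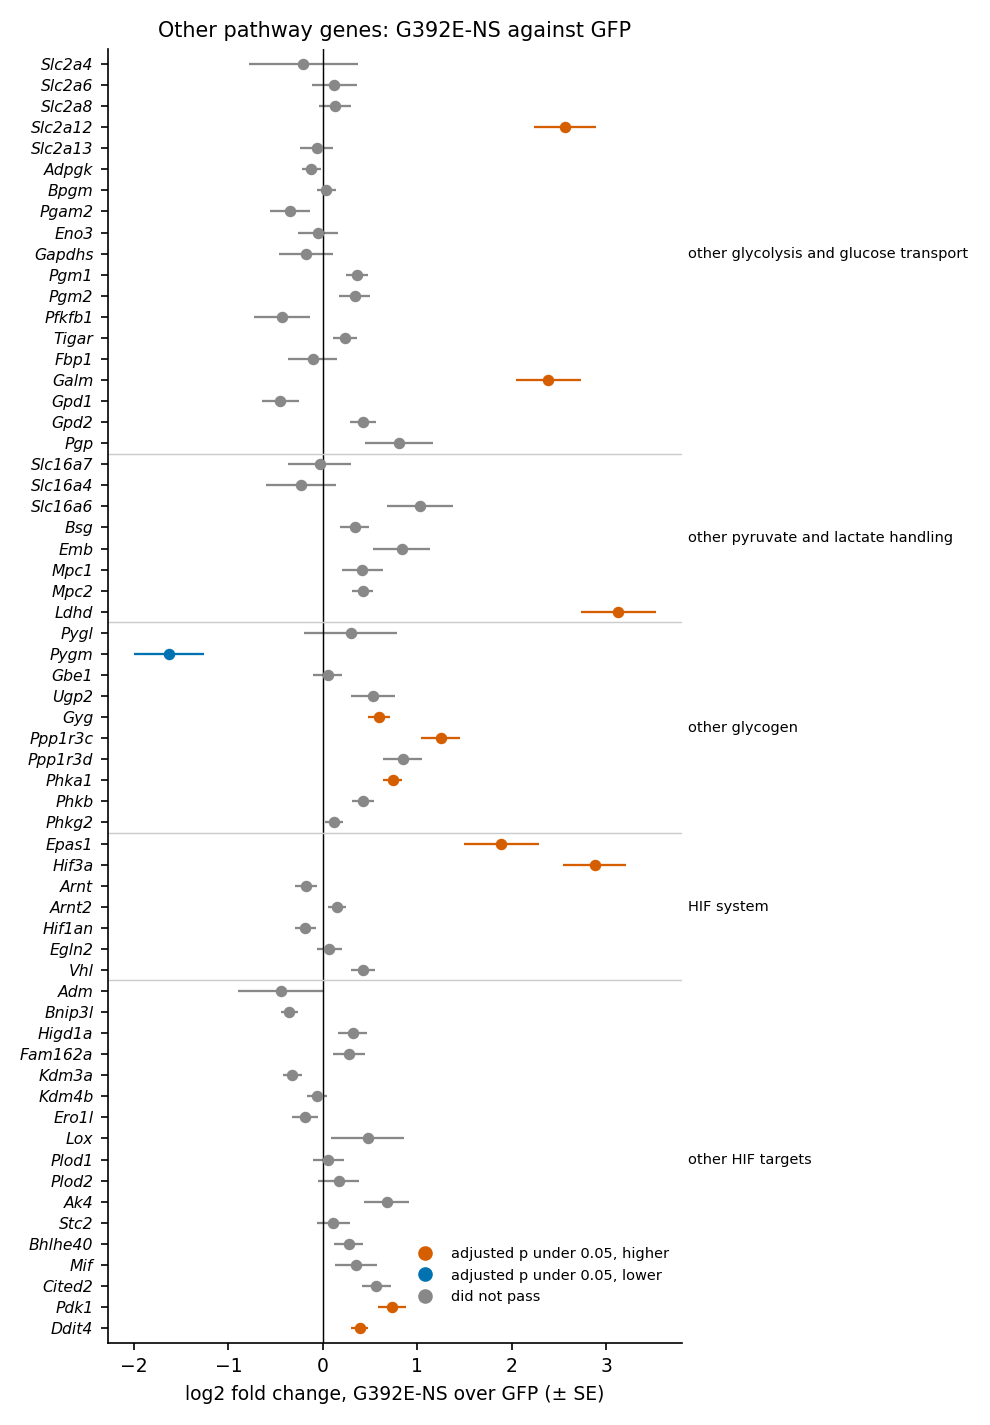
Log2 fold change of G392E-NS over GFP, with bars of 1 standard error on each side, for further genes of the same pathways. Orange points rose and the blue point, Pygm at −1.63, fell at an adjusted p under 0.05 (edgeR). Ldhd at 3.13, Hif3a at 2.88, Slc2a12 at 2.56 and Galm at 2.38 lie farthest to the right.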

How the data were processed

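RNA was sequenced from 3 GFP and 3 G392E-NS libraries. The deposited table holds raw counts per Ensembl gene, whole numbers that the authors did not normalise, per the labels and the values. Named in the submitters' processing notes, without their roles, are the build GRCm38, HTSeq 0.6.1, TopHat2 2.0.12, DESeq2 1.4.5 and R 3.2.2. Neither annotation release nor strand setting is given in the sources used here.

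Groups and replicate numbers came from the sample titles. GENCODE M21 (GRCm38) gave symbols for 37693 of 39179 genes, positions and exon lengths. Replicates were compared: chi-square per degree of freedom was 8.02 to 56.4, so none was a duplicate. Genes passing filterByExpr (13775, holding 99.9% of counts) were scaled with TMM factors and tested with edgeR 4.0.16 (R 4.3.3, quasi-likelihood F test, no covariate), with Benjamini-Hochberg adjustment over all of them and a threshold of 0.05. Each standard error is the log2 fold change divided by the square root of F. Scripts were tested on simulated data.

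Results were recomputed by DESeq2 1.42.0 and limma-voom (limma 3.58.1), with total-count, RLE or upper-quartile scaling, 2 other low-count filters, the replicate number as a block, removal of length and GC trends, and leaving out each library. All members are accounted for. Further pathway genes are named where called, except 1 that is counted but not reported here. Members and lists were chosen with earlier results of these data known, so they are not independent evidence.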

Additional observations from a re-analysis of the deposited data

How the results depend on the processing

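Over 15 alternatives, 6 of them leaving out 1 library, no called gene of either list changed direction. Members called higher numbered 8 with all libraries and 6 to 11 under 8 of the 9 other alternatives, and between 1 and 9 with a library left out. No member was called lower under any of the 15. All genes called higher numbered 660, against 1205 without a low-count filter, 1104 by DESeq2 and 196 to 981 with a library left out. Genes called lower were 1.36% of those tested, against 1.61% (374 genes) without a low-count filter, 1.52% (353) by DESeq2 and 0.324% to 2.81% with a library left out. Further pathway genes called higher ranged from 5 to 13 and called lower from 0 to 1 with a library left out. Those called lower numbered 2 with total-count scaling, 3 by DESeq2 and 0 by limma-voom, against 1. With the replicate number as a block, members called higher were 2 (Slc2a3 and Pfkp), all genes 217 higher and 50 lower (0.363% of those tested), and further pathway genes 5 and 0. Deviations of same-numbered libraries correlated at 0.03, −0.38 and −0.26, and not every library correlated best with its own number. Deviations within a group of 3 sum to 0, so these correlations depend on each other. They cannot settle whether the numbers pair the samples. The member median was 0.13 to 0.35 with a library left out. Genes below about 1 CPM, such as Ankrd37 and Slc16a3, and Ldhd, Galm, Gjb6 and Mog in GFP libraries, rest on few counts. No setting was added after the data were seen.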
